A study of Mus musculus with 6 samples.

Results

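Tgif1 and 9 other genes of TGF-beta signalling were followed across 6 arrays of embryonic mouse cortex with and without the histone methyltransferase ESET. The set holds the homeodomain repressors Tgif1 and Tgif2, the signal transducers Smad2, Smad3 and Smad4, the co-repressors Ski and Skil, the ligand gene Tgfb2 and the receptor genes Tgfbr1 and Tgfbr2. Every probe set that the platform annotation gives to 1 of these genes alone was taken, which made 25 of the 45037 probe sets and 10 of the 18193 genes measured. The set was chosen by the difference in array intensity between the genotypes that Tgif1 was already known to have, joined by genes of its pathway. Differences of the 10 genes between genotypes are therefore given as descriptions, without p-values. No filter on low values was applied, and all 25 probe sets entered the fit.

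Each array held biotin-labelled cRNA from 250 ng of total RNA of dorsal telencephalon, the dissected part of the forebrain that becomes the cerebral cortex, at E14.5, a stage at which the cortex is producing neurons. There were 3 wild type (WT) arrays and 3 arrays of conditional knockouts (cKO), which the labels call histone methyltransferase ESET KO and make with Emx2Cre. ESET is the H3 lysine 9 methyltransferase encoded by Setdb1. All embryos were labelled male and on a C57BL\6 background. Cre driven from Emx2 acts in dorsal forebrain progenitors and their descendants, so vessels, blood and other cells in the dissected tissue keep the gene. The labels do not say whether WT embryos carried Cre, so effects of Cre and of the deletion cannot be told apart. In such bulk tissue, fewer cells of a type and less RNA per cell cannot be told apart. The labels name no litters or dissections, so the spread between arrays of a group may be partly technical.

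TGF-beta ligands and their relatives, the activins and nodal, bind a type II receptor kinase that activates a type I receptor, which then phosphorylates Smad2 and Smad3. These join Smad4 and enter the nucleus to regulate target genes. There Tgif1 and Tgif2, members of the TALE homeodomain family, and the related proteins Ski and Skil (SnoN) recruit histone deacetylase complexes and hold Smad targets down. Loss of human TGIF1 is one cause of holoprosencephaly, a failure of the forebrain to divide. In the cortex, TGF-beta signalling is known for roles in neuronal differentiation, axon formation and vessel growth.

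Setdb1 itself was read first. Its brightest probe set had intensities of 1162, 1185 and 1033 on WT arrays and of 704, 696 and 499.9 on cKO arrays 1, 2 and 3. All cKO arrays lay below all WT arrays. Whether this probe set lies in the deleted part is not given, so a remaining signal does not measure how much of the gene was deleted.

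The arrays numbered 3 stood apart in both groups. WT 3 carried a female signal against its label, with Xist at 17294 where WT 1 had 59.0. cKO 3 carried Xist at 8811 together with the Y-linked Eif2s3y at 961. The summed intensity of 8 erythroid markers was 69418 on WT 3 and 74036 on cKO 3, against 11259 to 17170 on the other 4 arrays. The summed intensity of 10 markers of meninges and mesenchyme was 2284 on cKO 3 and 352 to 716 elsewhere. Markers of the ventral telencephalon, 9 in all, summed to 4747 on WT 3. They summed to 3593 and 3403 on WT 1 and 2 and to 4154 to 4564 in cKO. Of the cortical markers, Emx1, Emx2, Pax6, Neurog2, Eomes, Tbr1, Sox2 and Lhx2 were read, all between 647 and 8190 on every array. Emx2, whose name the Cre line bears, averaged 1241 ± 138 (SD, n = 3) in WT and 688 ± 49.6 in cKO, and Eomes, a gene of intermediate progenitors, 4820 ± 211 and 3126 ± 316. Both had no overlap between groups, like 15.5% of all genes. Their log2 differences were -0.83 (adjusted p = 0.0714 by limma) and -0.63 (adjusted p = 0.140). Neurog2 was higher in cKO without overlap, at 0.13. The rest overlapped, with Pax6, Sox2 and Lhx2 at 0.09, 0.17 and 0.07 and Emx1 and Tbr1 at -0.01 and -0.21. Of these 8 cortical markers limma called 0. The summed intensity of 8 endothelial markers was 1414 to 1580 in WT and 1133 to 1298 in cKO, also without overlap. For these reasons each difference below was also computed without both arrays numbered 3.

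Tgif1 was about 12 times brighter in cKO. Its single probe set had intensities of 149, 170 and 203 on WT arrays 1, 2 and 3 and of 2047, 1973 and 2226 on cKO arrays 1, 2 and 3. The lowest cKO array stood far above the highest WT array, and within each genotype the arrays lay close together. The means were 174 ± 27.2 (SD, n = 3) in WT and 2082 ± 130 in cKO, a ratio of 12.0. On the scale of log2(intensity + 16), the difference of cKO minus WT was 3.47 (moderated SE 0.16), and 3.53 without the arrays numbered 3. By this difference Tgif1 ranked 13 among the 18193 genes.

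**Figure D1:**
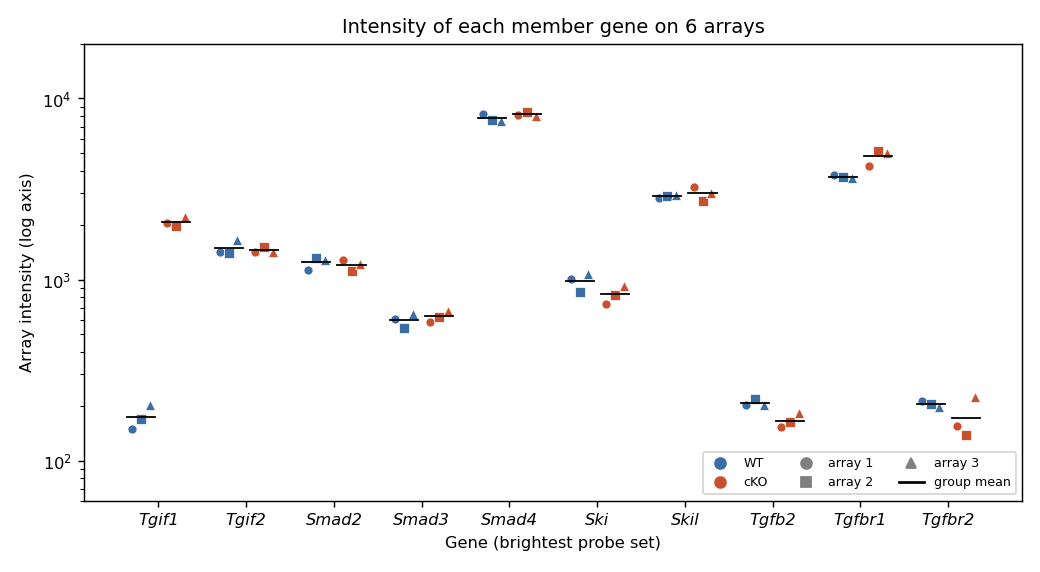
Array intensity (log axis) of the brightest probe set of each of the 10 genes on 3 WT arrays (blue) and 3 cKO arrays (orange). Marker shape gives the array number and the line the group mean. Tgif1 is the gene whose groups stand far apart, at 149 to 203 in WT and 1973 to 2226 in cKO. Heights of different genes are on different probes and are not comparable.

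Tgif1 lies on chromosome 17, at chr17:70844205-70853532 of GRCm38.p6, on the minus strand. The RefSeq promoter table gives 5 start sites for it, the innermost lying 6755 bases downstream of the outermost. The probe set reads a single value for the gene, so the data do not show from which start the additional transcript came. The starts differ in base composition. Windows of 300 bases, 250 before and 50 after a start, held 20, 22, 23, 15 and 2 CpG dinucleotides from the outermost start inwards, where the median of 32841 RefSeq windows was 7. The innermost window was also the poorest in G and C, at 37.3%, against 52.0% to 68.7% in the other 4 and a median of 52.7% over all windows.

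The 250 bases before the outermost and the innermost start are shown as the ends of the stretch that the starts cover, and because they differ in CpG content. The richest window was that of the third start. They are from RefSeq, build GRCm38.p6, minus strand, written 5′ to 3′ in the direction of transcription with CpG dinucleotides in capitals. The first spans chr17:70853533-70853782 and holds 15 CpG, and the second spans chr17:70846778-70847027 and holds 2.
Tgif1 outermost start: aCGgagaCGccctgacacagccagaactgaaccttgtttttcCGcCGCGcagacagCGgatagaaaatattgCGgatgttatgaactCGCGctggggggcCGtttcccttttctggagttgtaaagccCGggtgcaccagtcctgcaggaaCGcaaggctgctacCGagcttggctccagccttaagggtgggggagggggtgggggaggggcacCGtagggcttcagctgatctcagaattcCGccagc
Tgif1 innermost start: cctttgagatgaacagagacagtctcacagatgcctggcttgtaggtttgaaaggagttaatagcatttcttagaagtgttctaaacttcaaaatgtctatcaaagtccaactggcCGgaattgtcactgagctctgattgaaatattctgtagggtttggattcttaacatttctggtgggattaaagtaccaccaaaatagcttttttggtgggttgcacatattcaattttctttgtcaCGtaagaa

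RefSeq windows were matched for 7 of the 10 genes, 12 windows in all. A pair of short motifs was searched on both strands. TGTCA, the core bound by TGIF proteins, occurred in 5 of the 12 windows, 4 of them at Tgif1 starts, and in 45.4% of all windows. CAGAC, a Smad binding element, occurred in 6 of the 12, 3 of them at Tgif1 starts, and in 49.6% of all windows. The motifs can overlap by the letters CA. These matches describe the letters only.

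The genes measured next to Tgif1 did not pass the test. Nearer than the first measured gene lay 8 genes at higher coordinates and 1 at lower coordinates without a probe set of their own. The 6 genes tested were the 3 nearest on each side that had one. Of these 6, limma called 0 at an adjusted p under 0.05, and 1 had an unadjusted p under 0.05. Over all genes, 0.627% were called and 9.56% had such an unadjusted p. That 1 was Dlgap1, a scaffold protein of the synapse that ends 22.8 kb from Tgif1. Dlgap1 read 381, 319 and 344 in WT and 406, 660 and 508 in cKO, so its groups did not overlap, with a log2 difference of 0.55 (SE 0.20, adjusted p = 0.434). On the other side, the myosin light chain genes Myl12b and Myl12a, 120 and 140 kb away, differed by 0.12 (SE 0.14) and -0.04 (SE 0.15). Myom1, a muscle sarcomere gene, was at -0.01 (SE 0.39). Akain1 and C030034I22Rik, 1355 and 1425 kb away, were at -0.61 (SE 0.39) and -0.13 (SE 0.20).

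The genes most like Tgif1 across the 6 arrays were found by the root mean square difference of log2 values, each gene's WT mean subtracted. Since a gene this much higher in cKO can only be near others that are, the list describes the shape and size of the rise. The nearest was Rec8, a meiotic cohesin subunit, at 0.17 from Tgif1, followed by Galr1, a galanin receptor, at 0.27 and Sec14l4, a lipid transfer protein, at 0.29. Stag3, a cohesin subunit of germ cells, came next at 0.40 and the germ cell RNA helicase Ddx4 at 0.41. The median over 18192 genes was 2.47. Rec8 read 34.5, 32.6 and 54.4 in WT and 598, 594 and 501 in cKO. The WT means of Galr1 and Sec14l4, 7.68 and 9.14, were below the pseudocount of 16, which sets the size of their differences. No other gene of the set came near, with distances from Tgif1 between 2.21 for Tgfbr1 and 2.68 for Tgfb2.

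**Figure D2:**
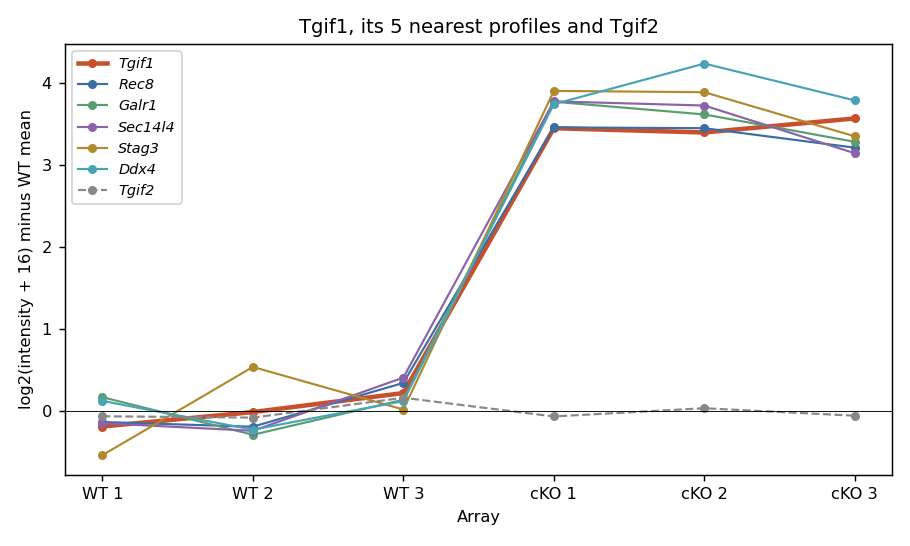
Log2(intensity + 16) minus the WT mean on each of the 6 arrays for Tgif1 (thick line), the 5 genes nearest to it and its paralogue Tgif2 (dashed). All 3 cKO arrays of the 6 high genes lie more than 3 above the WT mean, while Tgif2 stays near 0.

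Tgif2, the close relative of Tgif1 with the same co-repressor role, showed no difference of that size. The brighter of its probe sets read 1415, 1399 and 1658 in WT and 1413, 1516 and 1422 in cKO. The groups overlapped, with a log2 difference of -0.04 (SE 0.14). The other probe set read 156 to 240 in WT and 180 to 241 in cKO, a difference of 0.12 (SE 0.20).

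Across the 24 probe sets of the other 9 genes, differences ran from -0.46 to 0.41 with a median of 0.06, and 15 were above 0 and 9 below. The median over all probe sets was 0.02. In the main fit, with all 6 arrays weighted alike, the deposited scaling and a pseudocount of 16, 0 of the 24 exceeded 0.5 in size. Of all probe sets, 12.7% did. This limit depends on the processing, on single arrays and on dim probe sets. With median centring 1 exceeded it, a Tgfb2 probe set at -0.51 that read 72.2 or more on every array. With array weights 2 did, the same Tgfb2 probe set at -0.52 and a dim Smad3 probe set at 0.515. In fits without 1 array, 1 to 4 of the 24 exceeded it, up to 0.61 without WT 2 and 0.91 without cKO 3, both for a dim probe set of Smad3. Without both arrays numbered 3 the 24 ran from -0.67 to 0.64. With a pseudocount of 1, 4 exceeded it, the largest a Tgfbr2 probe set at 1.10. Including Tgif1, 2 of the 25 probe sets had every cKO array above every WT array and 1 had every cKO array below, where 7.47% and 6.07% of all probe sets did.

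**Figure D3:**
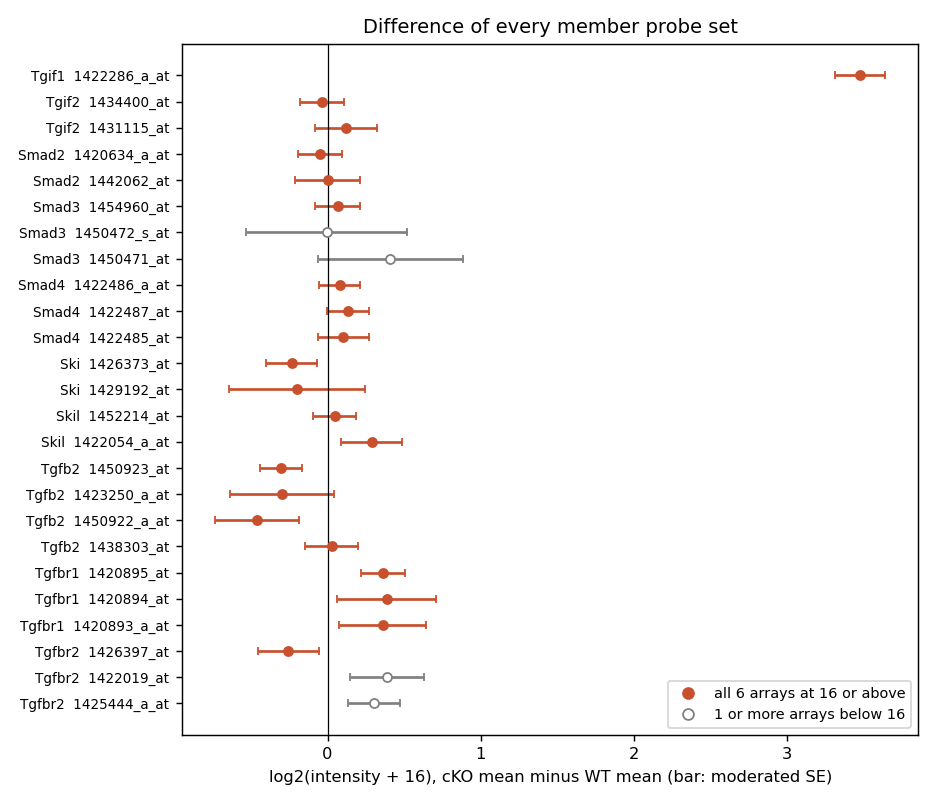
Difference of cKO minus WT in mean log2(intensity + 16) for each of the 25 probe sets, with the moderated SE as bars and 3 arrays per group. Open grey circles mark the 4 probe sets with an array below 16. Tgif1 lies at 3.47 and the other 24 between -0.46 and 0.41.

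The receptor-regulated transducers Smad2 and Smad3 had overlapping genotypes on all of their probe sets. Smad2 read 1130, 1309 and 1289 in WT and 1274, 1112 and 1214 in cKO, a log2 difference of -0.05 (SE 0.14). Its other probe set was at 0.00 (SE 0.21), with WT 2 at 894 above all other arrays, which ran from 543 to 677. Smad3 read 602, 542 and 648 in WT and 586, 619 and 670 in cKO, a difference of 0.06 (SE 0.14). The other 2 probe sets of Smad3 were dim, between 8.25 and 68.0, with differences of -0.01 (SE 0.53) and 0.41 (SE 0.47) that carry little information.

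Smad4, the common partner of the activated Smads, was read by 3 bright probe sets. The brightest read 8216, 7633 and 7468 in WT and 8134, 8451 and 8018 in cKO, with overlap and a log2 difference of 0.08 (SE 0.13). The others were at 0.13 (SE 0.14) and 0.10 (SE 0.17). These 3 probe sets all lay slightly higher in cKO, by less than their SE.

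The co-repressor genes Ski and Skil were set beside Tgif1 because their proteins act at the same Smad complexes. Ski read 1010, 854 and 1070 in WT and 737, 820 and 927 in cKO, a log2 difference of -0.24 (SE 0.16), and the groups overlapped. Its second probe set varied more within groups than between them. It read 998 on WT 3 and 900.0 on cKO 3 and 342 to 641 on the other arrays, so the arrays numbered 3 exceeded the others of their group by 0.97 and 1.04 (log2). The erythroid markers were high on the same arrays, by 2.94 and 3.18 on average, and their part in this was not tested. Skil, itself a target gene of the pathway as well as a repressor of it, read 2817, 2910 and 2949 in WT and 3246, 2714 and 3022 in cKO, a difference of 0.05 (SE 0.14) with overlap. A dim probe set of Skil, at 35.7 to 70.3, was at 0.29 (SE 0.20).

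Tgfb2 encodes the TGF-beta2 ligand. It read at most 246 on any of its 4 probe sets. The one representing it read 203, 220 and 203 in WT and 154, 163 and 182 in cKO, so every cKO array lay below every WT array. The log2 difference was -0.30 (SE 0.14), or -0.38 without the arrays numbered 3. Another 2 probe sets were at -0.30 (SE 0.34) and -0.46 (SE 0.27), with overlapping groups. In the latter, cKO 1 at 72.2 stood below all others, and without cKO 1 the difference came to -0.16. In the former, the arrays numbered 3 were highest in each group, at 246 and 213 against 96.3 to 161. The fourth probe set, at 46.0 to 68.1, was at 0.03 (SE 0.17), and its sign turned with the scaling, to -0.04 with quantile normalization and -0.02 with median centring.

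The type I receptor gene Tgfbr1 was the other gene whose cKO arrays all exceeded the WT arrays. Its bright probe set read 3759, 3691 and 3660 in WT and 4223, 5133 and 4999 in cKO. The means were 3703 ± 50.9 (SD, n = 3) and 4785 ± 492, a ratio of 1.29 and a log2 difference of 0.36 (SE 0.14), or 0.32 without the arrays numbered 3. Its dim probe sets, between 30.0 and 106, were at 0.39 (SE 0.32) and 0.36 (SE 0.28) and overlapped. The first of these was at 0.00 without the arrays numbered 3, since cKO 3 had its highest value.

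Tgfbr2, the type II receptor gene, read at most 224 on any of its probe sets. Its brightest probe set read 213, 206 and 197 in WT and 156, 138 and 224 in cKO, a log2 difference of -0.26 (SE 0.20). The highest and the lowest value were both in cKO, and without the arrays numbered 3 the difference was -0.47. The meninges and mesenchyme markers were also highest on cKO 3, and their part in its value was not tested. The other 2 probe sets read at most 19.3, near or below the pseudocount. They were at 0.39 (SE 0.24) and 0.30 (SE 0.17), opposite in sign to the brightest. The size of these differences depends on the pseudocount.

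Other genes of the pathway were taken from 10 lists that hold none of the 10 genes above. Of 175 genes written, 159 had a probe set of their own, and the other 16 were not analysed here. limma called 0 of the 159 at an adjusted p under 0.05, where 0.385% of all genes rose and 0.242% fell. An unadjusted p under 0.05 was found for 8, of which 5 were higher and 3 lower in cKO, together 5.03% of the 159 against 9.56% of all genes. Groups did not overlap for 18 of the 159, or 11.3%, against 15.5% of all genes. The median log2 difference was 0.04, against 0.01 over all genes. The median SE was 0.20, and 58 of the 159 had a WT mean below 100, so moderate changes of single genes could be missed with 3 arrays per group.

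Among 14 ligand genes of the TGF-beta, activin and nodal group, limma called 0, while 3 had an unadjusted p under 0.05, 1 of them higher and 2 lower, and the median was -0.10. Inhba, an activin subunit, read 147, 156 and 216 in WT and 96.3, 105 and 130 in cKO, a log2 difference of -0.57 (SE 0.19, adjusted p = 0.375). Tgfb3, a further TGF-beta ligand, read 96.2, 116 and 109 in WT and 154, 128 and 146 in cKO, a difference of 0.36 (SE 0.13, adjusted p = 0.441). On these probe sets Inhba was lower and Tgfb3 higher on every cKO array. Inhbc, near the pseudocount in cKO, and Gdf10, both dim, were at -1.09 (SE 0.41) and -0.48 (SE 0.21) with overlap.

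Of 21 genes that act in latency, in the matrix or as co-receptors, limma called 0, 0 had an unadjusted p under 0.05, and the median was 0.18. The co-receptor Tgfbr3 was at 0.91 (SE 0.40), at a WT mean of 25.4, and the latent TGF-beta binding protein Ltbp1 at 0.66 (SE 0.30). Nrros, a TGF-beta anchor of microglia, and the fibrillin Fbn2 were at 0.34 (SE 0.18) and 0.35 (SE 0.21). Of these 4, the groups of Nrros did not overlap. A further probe set of Fbn2 was at -0.07 (SE 0.21).

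The other type I and type II receptors gave 0 calls by limma among 10 genes, while 2 had an unadjusted p under 0.05, 1 in each direction, and the median was 0.04. Bmpr1b, a type I receptor for BMPs, read 293, 382 and 298 in WT and 183, 191 and 165 in cKO. Every cKO array was lower, with a log2 difference of -0.79 (SE 0.15, adjusted p = 0.107), and all 3 of its probe sets were below 0. Acvr1c, the nodal and activin receptor ALK7, read 28.5, 108 and 45.8 in WT and 126, 237 and 91.8 in cKO, a difference of 1.17 (SE 0.46, adjusted p = 0.489) with overlap. All 3 of its probe sets were above 0, the others at 0.93 (SE 0.21) without overlap and 0.24 (SE 0.35) with overlap. Acvrl1, an endothelial receptor, was at 0.59 (SE 0.27) with overlap, at a WT mean of 32.7. Its other probe set was at 0.08 (SE 0.22), also with overlap. Of the 8 endothelial markers limma called 0. Tie1, Cldn5 and Emcn were at -0.85 (SE 0.20), -0.38 (SE 0.14) and -0.46 (SE 0.12) without overlap, as 15.5% of all genes were. The others overlapped, with Cdh5, Kdr, Tek and Flt1 at -0.19, -0.25, -0.15 and -0.26 and Pecam1 at 0.06. The part of endothelial cells in the value of Acvrl1 was not tested. Acvr1 was at -0.35 (SE 0.20) with overlap, and its other probe sets at -0.54 (SE 0.15) without overlap and 0.71 (SE 0.58) with overlap.

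The 5 other Smads had 0 calls by limma, 0 with an unadjusted p under 0.05 and a median of 0.10. Inhibitory Smads that TGF-beta and BMP signals induce pointed in opposite directions, Smad7 at 0.36 (SE 0.18) and Smad6 at -0.62 (SE 0.28). Smad7 read 159 ± 34.3 (SD, n = 3) in WT and 206 ± 18.1 in cKO, and both genes overlapped between groups. The BMP transducers Smad1 and Smad9 were at -0.18 (SE 0.13) and 0.34 (SE 0.44).

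Regulators of receptors and Smads gave 0 calls by limma among 18 genes, 0 with an unadjusted p under 0.05 and a median of -0.07. The ubiquitin ligases Wwp1 and Wwp2 were at 0.22 (SE 0.11) and -0.19 (SE 0.12), and Tgfbrap1, a receptor-associated protein, at -0.16 (SE 0.11), each without overlap. The other probe sets of these genes overlapped between groups. Ldlrad4 was at -0.91 (SE 0.64), and its arrays numbered 3 exceeded the others of their group by 1.55 and 1.63. Co-repressors and nuclear partners of Smads gave 0 calls among 18 genes, 1 higher at an unadjusted p under 0.05 and a median of 0.01. E2f5, a cell cycle repressor that can join Smad3, read 1056, 997 and 1070 in WT and 1186, 1535 and 1501 in cKO, a difference of 0.42 (SE 0.14, adjusted p = 0.396). Of its 3 probe sets 2 were higher and 1 lower, at -0.27, and the mean over them gave 0.17. The histone deacetylase gene Hdac1, whose product Tgif1 can recruit, was at 0.30 (SE 0.19). Foxo3 was at 0.26 (SE 0.15) and Mecom at -0.38 (SE 0.21). Further probe sets of Mecom were at 0.38 (SE 0.32) and -0.06 (SE 0.16).

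Genes known to respond to TGF-beta gave 0 calls by limma among 25 genes, with 1 higher at an unadjusted p under 0.05 and a median of 0.09. That gene, Timp3, an inhibitor of matrix metalloproteases, was the closest to the threshold of the 159. It read 158, 154 and 190 in WT and 496, 324 and 493 in cKO, so all cKO arrays were higher, with a log2 difference of 1.29 (SE 0.20, adjusted p = 0.0639). Each of its 4 probe sets had all cKO arrays above all WT arrays, with differences from 0.62 to 1.48. Under 4 of 18 alternative analyses Timp3 passed, its adjusted p running from 0.0120 to 0.261 over the 18, and without the arrays numbered 3 the difference was 1.28. The others with the smallest p were the matrix protein Postn at 0.63 (SE 0.34), the transcription factor Jun at 0.39 (SE 0.22) and the integrin Itgb1 at 0.23 (SE 0.14). Postn was highest on cKO 3, at 102 against 39.7 and 50.2 on cKO 1 and 2. Markers of meninges and mesenchyme were also highest on cKO 3, and their part in the value of Postn was not tested. The list median was 0.00 without the arrays numbered 3.

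**Figure D4:**
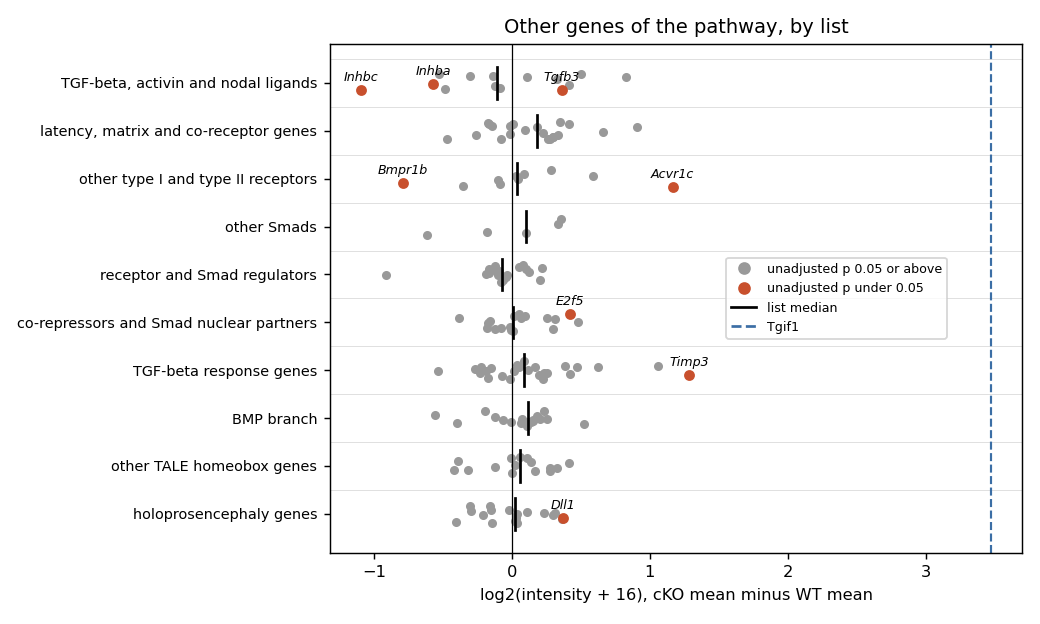
Difference of cKO minus WT in mean log2(intensity + 16) for the 159 other genes in 10 lists, with 3 genes shown in 2 lists. Orange points have an unadjusted p under 0.05, black lines are list medians, between -0.10 and 0.18, and the dashed line is Tgif1 at 3.47. All points lie at 1.29 or below, and 0 passed the adjusted threshold.

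The BMP branch had 0 calls by limma and 0 unadjusted p under 0.05 among 18 genes, with a median of 0.11. Twsg1, a BMP modulator, was at 0.26 (SE 0.15), and the ligand genes Bmp5 and Gdf5 at -0.56 (SE 0.33) and -0.40 (SE 0.30). Further Bmp5 probe sets, with WT means of 7.83 and 14.3, were at -0.20 (SE 0.32) and 0.54 (SE 0.36). Msx2, a BMP-induced homeobox gene, was at 0.53 (SE 0.34). Its intensity in WT averaged 11.2, which is less than the pseudocount.

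The other TALE homeobox genes, the family to which Tgif1 belongs, also gave 0 calls by limma and 0 unadjusted p under 0.05, among 15 genes with a median of 0.06. Differences ran from -0.42 to 0.42. Meis3 was at -0.32 (SE 0.15), with every cKO array lower, Pknox2 at -0.39 (SE 0.20), Irx6 at 0.42 (SE 0.24) and Meis1 at 0.28 (SE 0.20). Further Meis1 probe sets were at 0.26 (SE 0.22) and -0.36 (SE 0.41). Genes linked, like Tgif1, to holoprosencephaly gave 0 calls among 18, with 1 higher at an unadjusted p under 0.05 and a median of 0.03. Dll1, a Notch ligand, read 1224, 1326 and 1468 in WT and 1794, 1606 and 1820 in cKO, a difference of 0.38 (SE 0.13, adjusted p = 0.408). The receptor genes Fgfr1 and Boc, for FGF and for Sonic hedgehog, were at -0.30 (SE 0.13) and 0.36 (SE 0.16) without overlap. Of their other probe sets, those of Fgfr1 were at -0.32 without overlap and -0.07 with overlap. Those of Boc were at 0.06 and -0.16, both with overlap. Foxh1, a nodal pathway factor, was dim and at 0.32 (SE 0.24).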

How the data were processed

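The authors deposited linear array intensities, summarised to 1 value for each probe set and made with Affymetrix Expression Console per the submitters' processing notes. Its version and the algorithm of that summary were not given in the sources used here, and trimmed means of 497.2 to 497.7 on every array show a common scaling. Values were taken to log2(intensity + 16), which shrinks differences of dim genes, and medians of the arrays differed by 0.33. Genotype was fitted with limma 3.58.1 in R 4.3.3 (lmFit, eBayes). A fit over all 45037 probe sets gave the values of the 10 genes, of Setdb1 and of further probe sets of list genes. A fit over 18193 genes, each by its brightest probe set, gave those of the others. Benjamini-Hochberg adjustment ran over all genes with a threshold of 0.05. ± is the SD of 3 arrays.

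The members, gene lists and tests were chosen with earlier results of these data known. Named are the 10 genes, list genes past the threshold with up to 4 others of smallest p, the 3 measured neighbours of Tgif1 on each side and the 5 nearest profiles, predicted genes passed over (0 were). Names come from the platform annotation, and loci, neighbours and sequences from RefSeq tables of GRCm38.p6. Of the start-site windows, 10 with undetermined bases were left out of the background. Alternatives were quantile normalization, median centring, pseudocounts of 1 and 64, dropping dim probe sets, robust eBayes with a trend, array weights, dropping _x_at and _s_at probe sets, the mean of a gene's probe sets, replicate number or the arrays numbered 3 as a block, and leaving out arrays.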

Additional observations from a re-analysis of the deposited data

How the results depend on the processing

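The log2 difference of Tgif1 stayed between 3.18 and 3.58 over 17 alternatives, the low value coming from a pseudocount of 64, and ran from 3.38 to 3.58 when 1 array was left out. The median of the other member probe sets ran from -0.02 to 0.08, while the highest of them went from 0.41 to 1.10 with a pseudocount of 1 and to 0.91 without cKO 3. The number of genes called over the whole table depended on the settings. From 114 it went to 58 with a pseudocount of 1, 215 with 64, 252 without dim probe sets, 244 with trend and robust eBayes, 172 with array weights, 8 without both arrays numbered 3 and 26 to 53 without 1 array, fits that also have less power. Of the other pathway genes, 1 was called with median centring, with a pseudocount of 64 and with trend and robust eBayes, in each case Timp3 of the response list. Without dim probe sets 2 were, Timp3 and Bmpr1b, so that the response list and the list of other receptors had 1 each. Leaving out 1 array called 0 of them, as did the other alternatives. Of the genes measured next to Tgif1, 0 were called under any alternative. With the replicate block, 17 genes and 0 pathway genes were called. Deviations of same-numbered arrays correlated across probe sets at 0.08, 0.19 and 0.41, and WT 1 correlated better with cKO 2 (0.11) than with cKO 1, so the numbers were not taken as pairs. The scale of the arrays, 1 probe set for Tgif1 and 3 arrays per group limit the precision.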
